A study of Brassica napus with 12 samples.

Results

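Chromosome C08 of Brassica napus (oilseed rape) is described here through its annotated genes, taken as every deposited target whose identifier begins with BnaC08g and ordered by the gene number in that identifier. These are 5018 of 101040 targets, with gene numbers from 10 to 50180. Of them, 3966 had a value above 0 in at least 1 library and 1052 had none. The chromosome was chosen by its measured level, the estimated counts and TPM of its genes, which were known to be low in 2 of the libraries, so levels in those libraries are given as a description and carry no test.

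RNA was sequenced from seedlings aged 16 days, of which the first true leaf was taken, of the cultivars Avatar and Zhongshuang 9. Plants of each cultivar were kept for 24 h either fully submerged in tap water or in similar boxes in air, and all grew in the same short days. The 4 groups of cultivar and treatment hold 3 libraries each, numbered 1, 3 and 4. The labels do not state how many plants went into each library, so p-values measure only the spread between these samples, which may be technical.

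Brassica napus is an allotetraploid that carries an A subgenome from an ancestor shared with Brassica rapa and a C subgenome from one shared with Brassica oleracea. Many genes therefore exist as an A and a C copy, called homoeologs. In this species homoeologous chromosomes can exchange segments, and plants that gain or lose copies of a chromosome or segment are known. The identifiers could not be tied to gene functions with the sources used here, so genes are given by identifier, coding length and level.

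The share of a library's estimated counts that fell on C08 lay between 4.52% and 4.99% in 10 libraries. It was 3.28% in Avatar submergence replicate 1 and 2.64% in Zhongshuang 9 air replicate 4. In TPM, which is scaled to coding length and to the same total in each library, C08 genes summed to between 44275 and 51734.5 in the 10 libraries, to 33584.5 in the first of the lowered libraries and to 27977.9 in the second. Both lowered libraries therefore stood below all others on both scales, and neither was shallow: their totals of 35487108 and 34014030 estimated counts lie within the range of 24389813 to 35873196 over all libraries.

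**Figure D1:**
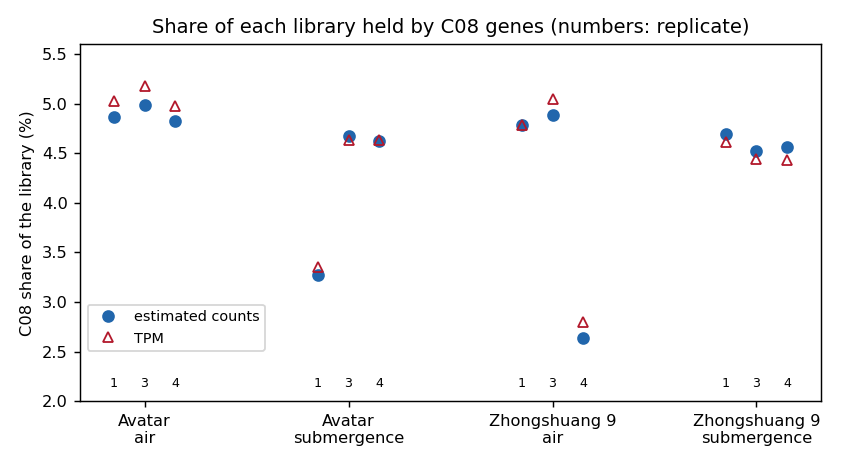
Share of each library's estimated counts (filled circles) and of its TPM sum (open triangles) held by C08 genes, in percent, for the 3 libraries of each group; the axis starts at 2%. Avatar submergence replicate 1 (3.28% of counts) and Zhongshuang 9 air replicate 4 (2.64%) lie below the other 10 libraries (4.52% to 4.99%).

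The level of a gene in a library was measured as its log2 CPM (CPM, counts relative to a common library total, with library sizes scaled by TMM factors) minus the mean of the other 2 libraries of its group. It was followed over the 1588 C08 genes with a mean log2 CPM above 1. In Zhongshuang 9 air replicate 4 the whole chromosome was lowered by a similar amount. The median C08 gene stood at 54.3% of its level in the group mates, a log2 difference of -0.88, with quartiles of -1.04 and -0.71. Of the 1588 genes, 1567 were below their group mates. All 40 blocks of about 40 neighbouring genes had medians between 50.8% and 58.8%. The other chromosomes of this library had medians between 102.6% and 104.5%.

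A log2 difference of -0.5 or lower was found in 90.4% of C08 genes in this library, against 7.98% of all 33280 genes of the same expression level and 3.24% of those off C08. These values chose the chromosome and nothing further is read from them.

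In Avatar submergence replicate 1 only part of the chromosome was lowered. The median over all C08 genes was 60.1% of the group mates. In blocks of about 40 genes, 29 of 40 blocks stood at or below -0.5. They ran from gene number 14280 to 50180 with a gap of 1 block, from 46640 to 47920, whose median log2 difference was 0.01. With that gap joined, the stretch holds 1188 genes at a median of 53.9%. The genes below 14280 contained no lowered block of that size. Of the C08 genes, 61.6% had a log2 difference of -0.5 or lower, against 14.3% of all genes measured and 11.7% of those off C08.

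Blocks of 10 genes, a size chosen after the data were seen, placed the borders more closely. The main lowered stretch then ran from 15040 to 46160, with 1050 genes at 52.5% of the group mates. A further stretch from 48530 to 50180, with 48 genes, stood at 54.3%, and the blocks between the pair were not lowered. Gene number only stands in for position here. Over 152 C08 identifiers that a RefSeq table of another assembly places on C8, the rank correlation of the 2 orders was 0.85. Whether the genes from 48530 on lie beyond the gap on the chromosome was not tested. A short stretch from 6030 to 6560, with 20 genes, stood at 53.1%. Just ahead of the main stretch, 70 genes between 12860 and 14590 stood above their group mates, at 147%. Away from it, 20 genes between 2280 and 3050 also stood above theirs, at 135%. Single lowered blocks of 10 genes also occurred in Avatar air replicate 4 and Zhongshuang 9 submergence replicate 3.

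Zhongshuang 9 submergence replicate 1 had a C08 median of 102.3% of its group mates, but a short stretch in it was nearly silent. Over the 40 expressed genes from 44100 to 45540, the median was 1.75% of the group mates on the log2 scale, where the prior count limits how low a value can fall, and 0.348% as a plain ratio of CPM. In this library 22 of the 40 genes had at most 2 counts. By the plain ratio, 31 were below 5% of their group mates and 4 were at 50% or more. The genes below 5% lay between 44100 and 45410. This library also departs from its group elsewhere: 19.6% of its genes off C08 had a log2 difference of -0.5 or lower, and its A06 genes had a median of 75.7% of the group mates.

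**Figure D2:**
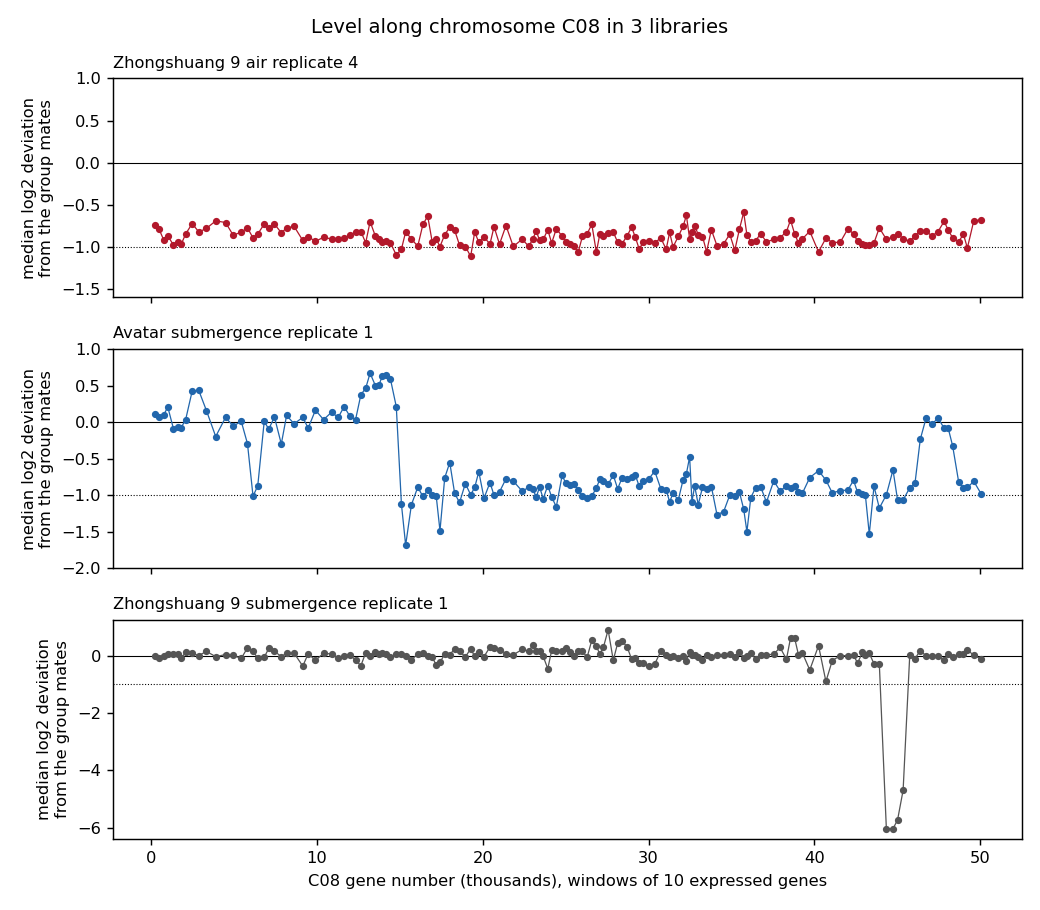
Median log2 deviation from the 2 group mates (vertical axis) in windows of 10 expressed genes along C08 in order of gene number (horizontal axis); solid lines mark 0, dotted lines -1, and the lowest panel has a wider scale. Zhongshuang 9 air replicate 4 is lowered throughout (median -0.88), and Avatar submergence replicate 1 from 15040 to 46160 and in shorter stretches. Zhongshuang 9 submergence replicate 1 is lowered between 44100 and 45540 and in a single window from 40550 to 40850.

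The genes with the highest mean CPM in the 40-gene stretches differed in the Avatar library. BnaC08g40850D, with a coding length of 1200 bases, had 1762, 1536 and 1406 CPM in Avatar air replicates 1, 3 and 4. Under submergence it had 281, 779 and 832 CPM in Avatar. In Zhongshuang 9 it had 1673, 1665 and 901 CPM in air and 716, 794 and 852 CPM under submergence. Both lowered libraries stand below their group mates, the Avatar library by more than the chromosome's median. BnaC08g46180D, of 1209 bases, had 362 CPM in Avatar submergence replicate 1, against 433 and 464 CPM, and 620 CPM in Zhongshuang 9 air replicate 4, against 985 and 1129 CPM. In Avatar it was lowered less than the chromosome's median, and its gene number lies just past the border at 46160.

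BnaC08g44890D, of 792 bases, is the highest gene of the silent stretch. In submerged Zhongshuang 9 it had 0.476, 343 and 304 CPM in replicates 1, 3 and 4, and in air 1014, 986 and 500 CPM. Avatar had 1040, 913 and 966 CPM in air and 165, 443 and 477 CPM under submergence. Replicate 1 of submerged Zhongshuang 9 is thus separated from every other library. BnaC08g45130D, of 2250 bases, had 1.74 CPM there, against 98.2 and 99.9 CPM in the group mates.

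A08 and A09 were examined in the same blocks, since they hold most of the few C08 identifiers that a RefSeq table of another assembly places off C8. Of 165 C08 identifiers matched to that Da-Ae table, 152 lie on C8, 7 on A8, 4 on A9 and 2 elsewhere. In Zhongshuang 9 air replicate 4 the A08 blocks lay between 94.0% and 110.8% and the A09 blocks between 95.6% and 109.5%, so no block of either rose beyond the limit of 0.4 on the log2 scale. In Avatar submergence replicate 1 the A08 blocks lay between 90.7% and 114.5%, and 1 of 53 A09 blocks, from 51660 to 52440, stood at 136.5%. That block also varied in Avatar libraries whose C08 was not lowered: it stood at 69.8% in the group mate, submergence replicate 4, at 61.4% in air replicate 4 and at 142.1% in air replicate 3. In Zhongshuang 9 submergence replicate 1, A09 genes from 48190 to 50530 stood at 170.4%, and A08 genes from 19510 to 21720 at 50.7%. Shifts went both ways on both chromosomes in that library: A08 blocks from 27540 to 28280 and from 30 to 900 stood at 194.2% and 141.2%, and A09 blocks from 9950 to 11230 and from 20360 to 21500 at 68.5% and 69.2%. Whether these are counterparts of the C08 stretches was not tested. DNA copy number was not measured, so fewer copies of a gene and less RNA per copy cannot be told apart.

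Within the lowered stretches the level varied little with expression. When genes were divided into 3 classes by mean TPM, the medians from the lowest to the highest class were 55.6%, 53.2% and 49.3% in the 10-gene stretches of Avatar submergence replicate 1. In Zhongshuang 9 air replicate 4 they were 52.9%, 53.1% and 56.4%. Genes whose estimated counts were whole in every library, and so were not divided between copies, had medians of 65.7% (40 genes) and 62.7% (75 genes) in these libraries. The other genes had 52.5% and 54.1%.

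Few genes kept their level where the rest were lowered, taken as a log2 deviation of -0.3 or above. The stretches bounded by blocks of 10 genes, which were themselves drawn from these deviations, hold 786 genes that had a mean of at least 5 CPM over all libraries and at least 1 CPM in the group mates of both lowered libraries. Of these, 61 (7.76%) kept their level in Avatar submergence replicate 1 and 16 (2.04%) in Zhongshuang 9 air replicate 4. Genes off C08 lay as far above their own median in 6.62% and 0.556% of cases. The Avatar share is close to that background.

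Both limits were added after values were seen. By the original rule, with 847 genes in the joined 40-gene stretch and no limit in the group mates, 110 (13.0%) passed in the Avatar library and 20 (2.36%) in the Zhongshuang 9 library, with 4 in both. That count is not a count of genes that kept their level where others were lowered: 46 of the 110 are among 64 genes outside the 10-gene stretches, where most genes were not lowered. One of the 4, BnaC08g20250D, had 0 counts in all 3 Zhongshuang 9 air libraries and so had no level to keep. The 4 are 0.472% of the 847 genes, where 0.171% of genes off C08 lay as far above their own medians in both libraries.

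With both limits 4 genes passed in both libraries, which is 6.56% of the Avatar list and 25% of the Zhongshuang 9 list. They are the other 3 of the original rule and BnaC08g06530D, in the short stretch from 6030 to 6560, which was named after its values were seen. With at least 5 CPM in the group mates, 3 of 658 genes passed in both libraries. Off C08, 0.122% of 20492 genes lay as far above their own medians in both libraries with the limit of 1 CPM. With the limit of 5 CPM it was 0.0621% of 16113 genes.

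BnaC08g43480D, of 558 bases, is the highest of the 3 that also pass the original rule. It had 96.6 CPM in Avatar submergence replicate 1, against 82.3 and 100 CPM in the group mates, and 165 CPM in Zhongshuang 9 air replicate 4, against 123 and 114 CPM. BnaC08g35830D, of 564 bases, had 13.3 CPM in the lowered Avatar library, against 10.3 and 15.0 CPM, and 16.7 CPM in the lowered Zhongshuang 9 library, against 14.1 and 16.3 CPM. In both genes the Zhongshuang 9 library stood above both group mates, in the second only slightly, and the Avatar library lay between its group mates. The third, BnaC08g16150D, had 10.4 CPM against 8.42 and 9.42 CPM, and 2.63 CPM against 2.76 and 3.69 CPM.

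Just outside the limit, between -0.35 and -0.3, lay 2 of the 786 genes, and 1 lay just inside. Across the 786 genes, the deviations in the 2 libraries had a Pearson correlation of 0.03 and a Spearman correlation of 0.08, as a description over genes that share libraries.

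**Figure D3:**
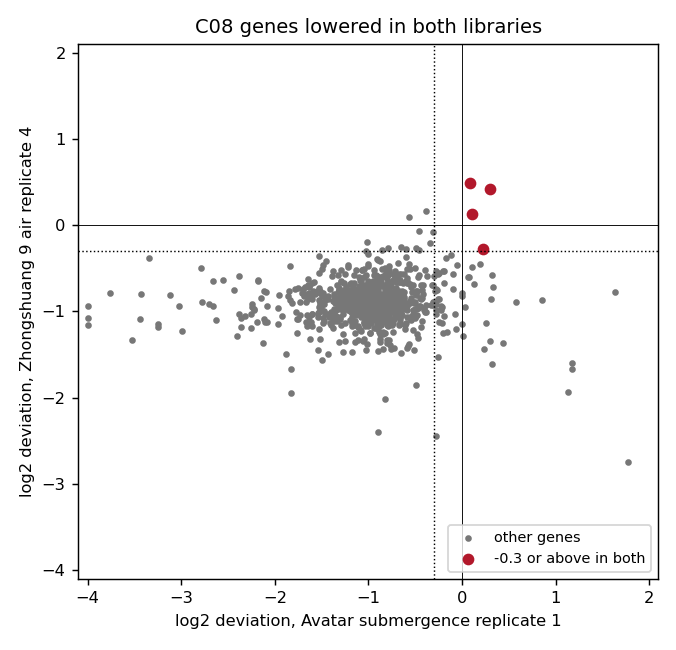
Log2 deviation from the group mates in Avatar submergence replicate 1 (horizontal) and Zhongshuang 9 air replicate 4 (vertical), 1 point per C08 gene, for the 786 genes of the 10-gene stretches with at least 1 CPM in the group mates; values beyond -4 or 2 are drawn at those limits. Dotted lines mark -0.3, and the 4 genes above it in both libraries are drawn larger.

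The submergence response of C08 was then measured in the 10 libraries without the 2 lowered ones, which leaves 2 submerged Avatar and 2 air Zhongshuang 9 libraries. edgeR's quasi-likelihood test was run over 56479 genes, 2794 of them on C08, with Benjamini-Hochberg adjustment and a threshold of 0.05. In Avatar 534 C08 genes rose and 473 fell, 36.0% of those tested, where 33.3% of all genes were called (17.9% higher and 15.4% lower). In Zhongshuang 9, 539 rose and 579 fell, or 40.01%, where 37.7% of all genes were called (18.3% higher and 19.4% lower). C08 ranked 5th and 7th of 19 chromosomes by this share. Removing a further library of the groups with 2 lowered the C08 counts and the shares over all genes alike. Avatar had 601 C08 calls without submergence replicate 3 and 604 without replicate 4, where 18.7% and 19.0% of all genes were called. Zhongshuang 9 had 796 without air replicate 1 and 661 without replicate 3, where 24.9% and 20.8% were called.

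The lowered libraries change these counts when they are kept. With all 12 libraries, 364 C08 genes rose and 474 fell in Avatar, 30.5% of those tested against 40% of all genes (21.6% higher and 18.4% lower). In Zhongshuang 9, 617 rose and 361 fell, 35.6% against 44.5% (22.5% higher and 22% lower). C08 was then the 19th of 19 chromosomes in both cultivars. The median log2 fold change of C08 genes was -0.05 in Avatar and 0.25 in Zhongshuang 9 with 12 libraries, and 0.08 and 0.03 with 10; over all genes it was 0.11 and 0.01, then 0.09 and 0.02.

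**Figure D4:**
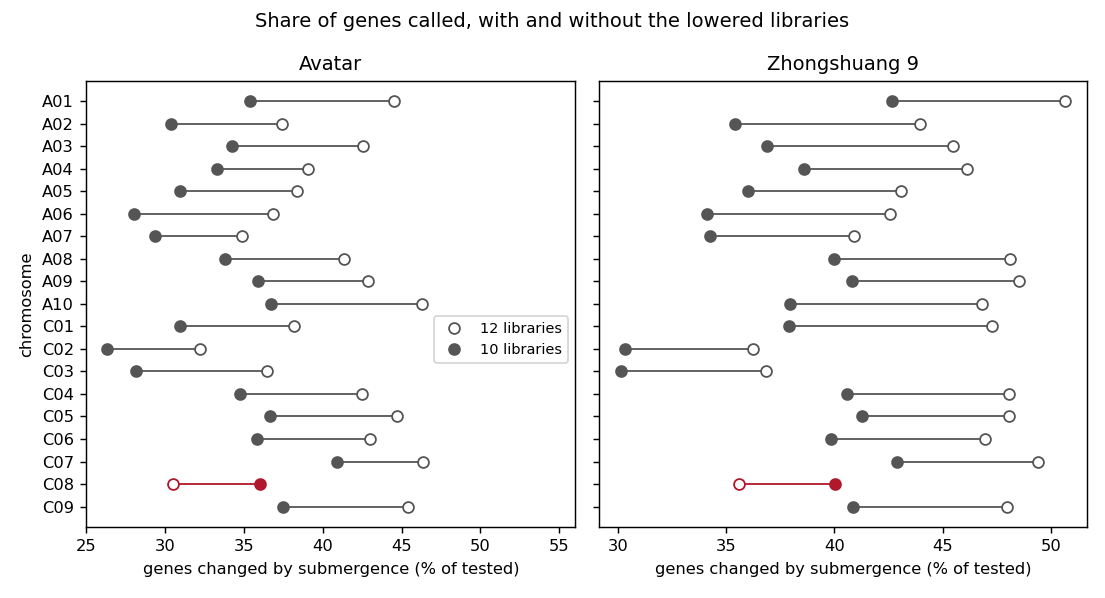
Share of tested genes changed by submergence (horizontal axis, percent, not starting at 0) for each chromosome, with all 12 libraries (open) and with the 10 libraries that exclude those with lowered C08 (filled). C08, in red, rises from 30.5% to 36.0% in Avatar and from 35.6% to 40.01% in Zhongshuang 9.

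The genes called also differ. In Avatar, 730 genes were called with both sets of libraries, which is 72.5% of the 10-library calls and 87.1% of the 12-library calls. In Zhongshuang 9, 864 were called with both, 77.3% and 88.3%. The difference lies mainly in 1 direction in each cultivar: of 534 Avatar risers, 328 were called with 12 libraries, and of 579 Zhongshuang 9 fallers, 353 were. This overlap was counted for C08 alone. Over all genes the share called also changed, from 33.3% to 40% in Avatar and from 37.7% to 44.5% in Zhongshuang 9. How much of the overlap is particular to C08 was not tested.

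The same genes were also looked at, as a description, in the library that the fit left out. In Avatar submergence replicate 1, 400 of the 534 risers stood above the air libraries as measured, and 520 did once the shift of their 10-gene stretch was removed. Of 473 fallers, 467 and 461 stood below. In Zhongshuang 9 air replicate 4, 437 of 579 fallers stood above the submerged libraries as measured and 577 with the shift removed, and 539 and 532 of 539 risers stood below. The air or submerged libraries they are set against also entered the fit. The shift was measured against the group mates, which entered the fit too, so the higher numbers after its removal are no separate support. These numbers were counted for C08 alone and are not read as particular to it.

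The scaling of libraries moved the balance of directions. Risers made up 53.0% of C08 calls in Avatar and 48.2% in Zhongshuang 9 with TMM factors. With library totals alone they made up 72.9% and 64.0%, and a limma fit to log2(TPM + 1) gave 68.4% and 63.5%. With library totals alone, all genes had a median log2 fold change of 0.39 in Avatar and 0.30 in Zhongshuang 9, and C08 genes had 0.38 and 0.31.

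Most C08 calls were shared by the cultivars, as were those of all genes. Of the C08 genes that rose, 402 did so in both, which is 75.3% of the Avatar list and 74.6% of the Zhongshuang 9 list, against 71.7% and 69.97% over all genes. Of those that fell, 377 did so in both, 79.7% and 65.1%, against 77.7% and 61.8%. Opposite calls were made for 2 C08 genes in each direction, and for 50 and 43 of all genes. The change was at least 2-fold for 619 of the 1007 genes called in Avatar and for 754 of the 1118 in Zhongshuang 9. This size was counted for C08 alone, so it is not read as particular to C08. Over the 10 libraries, 12 C08 genes (0.239%) were detected in every submerged library and no air library, and 6 (0.12%) the other way round, against 0.172% and 0.122% of all targets.

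Of the genes that rose in both cultivars, BnaC08g13970D, of 1134 bases, went from near absence to clear expression. It had 0.0374, 0.0381 and 0 CPM in Avatar air, and 33.5, 14.1 and 11.5 CPM under submergence, of which the first is the lowered library. Zhongshuang 9 had 0, 0.0618 and 0.0326 CPM in air and 56.9, 44.6 and 43.8 CPM under submergence. Submerged and air libraries do not overlap. On 2 counts in air, the ratio was 526 in Avatar, with an exact counting interval of 145 to 4352, and 1456 in Zhongshuang 9, with an interval of 403 to 12027. The adjusted p of edgeR's quasi-likelihood test was 4.28e-05 and 2.18e-05.

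BnaC08g19690D, of 1125 bases, had 0, 0.0381 and 0 CPM in Avatar air and 7.94, 9.41 and 2.08 CPM under submergence. The Zhongshuang 9 libraries had 1.07, 0.0309 and 0 CPM in air and 52.1, 31.4 and 27.3 CPM under submergence. The groups do not overlap in either cultivar, but its 2 usable submerged Avatar libraries differ more than 4-fold. Its adjusted p by edgeR's quasi-likelihood test was 0.00334 in Avatar and 0.00438 in Zhongshuang 9, and in Avatar limma-voom gave 0.0601, the highest of its alternatives, which began at 2.69e-07.

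Of those that fell, BnaC08g26600D, of 453 bases, had 9.26, 7.99 and 10.2 CPM in Avatar air and 0.0234, 0 and 0 CPM under submergence. Levels in Zhongshuang 9 were 6.88, 4.57 and 3.88 CPM in air and 0.0501, 0.123 and 0.0747 CPM under submergence. It was at least 111-fold lower in submerged Avatar, against a floor of 3 counts per library. In Zhongshuang 9 its log2 fold change was -6.07 ± 0.36 (SE, n = 2 and 3; edgeR quasi-likelihood adjusted p = 3.84e-05).

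BnaC08g49850D, of 1587 bases, had 11.8, 9.44 and 6.73 CPM in Avatar air and 0, 0.0571 and 0.132 CPM under submergence. Zhongshuang 9 showed 5.52, 7.42 and 4.05 CPM in air and 0, 0.0307 and 0.0373 CPM under submergence. Its log2 fold change in Avatar was -6.55 ± 0.55 (SE, n = 3 and 2; edgeR quasi-likelihood adjusted p = 0.000132), and in Zhongshuang 9 it was 325-fold lower on 2 counts, with an exact counting interval of 89.5 to 2696.

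The silent stretch bears on the calls inside it. Of its 40 genes, 2 were called in each cultivar with the 10 libraries, and 22 in each when Zhongshuang 9 submergence replicate 1 was also left out, 13 higher and 9 lower. Over all genes the share called also rose without that library, from 33.3% to 42.5% in Avatar and from 37.7% to 41.6% in Zhongshuang 9. Without that library BnaC08g44890D had a log2 fold change of -1.58 in Zhongshuang 9, with an adjusted p of 4.9e-05 by edgeR's quasi-likelihood test, against -2.21 and 0.27 with it; over all alternatives the adjusted p lay between 4.28e-05 and 0.446.

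The response differed between the cultivars for few C08 genes. The interaction was called for 10, of which 5 were higher and 5 lower in Zhongshuang 9, 0.358% of those tested, where 0.375% of all genes were called (0.129% higher and 0.246% lower). With 12 libraries 10 were also called, of which 4 are shared, but the share called rose on the other chromosomes. C08 then had 0.364% called and the other chromosomes 0.623% to 2.03%. It ranked 19th of 19 by this share, against 11th with 10 libraries. Without Avatar air replicate 3, Avatar submergence replicate 4, Zhongshuang 9 air replicate 1 or 3, or Zhongshuang 9 submergence replicate 4, edgeR called 0, with 253 to 363 genes at an unadjusted p under 0.05. It called 3 without Avatar air replicate 4 or Zhongshuang 9 submergence replicate 3, and 25 without Zhongshuang 9 submergence replicate 1. Shares over all genes in the fits with a further library left out are not set beside these counts. The changes are therefore not read as particular to C08.

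BnaC08g18630D, of 1524 bases, had 13.5, 14.9 and 16.5 CPM in Avatar air and 11.96 and 10.7 CPM in the submerged replicates 3 and 4. In Zhongshuang 9 it had 4.59 and 4.33 CPM in air replicates 1 and 3 and 11.6, 13.9 and 12.6 CPM under submergence. Air Zhongshuang 9 is apart from the other groups. The difference in log2 response was 1.91 ± 0.21 (SE; edgeR quasi-likelihood adjusted p = 0.0169).

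BnaC08g45780D, of 3438 bases, had 12.3, 13.1 and 13.4 CPM in Avatar air and 69.3 and 65.5 CPM under submergence. Values in Zhongshuang 9 were 11.6 and 11.1 CPM in air and 136, 144 and 154 CPM under submergence. It rose in both cultivars, and the difference in log2 response was 1.29 ± 0.15 (SE; edgeR quasi-likelihood adjusted p = 0.022).

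BnaC08g03540D, of 1941 bases, had 23.8, 22.5 and 19.8 CPM in Avatar air and 13.7 and 11.8 CPM under submergence, and in Zhongshuang 9 10.5 and 12.3 CPM in air and 2.04, 1.63 and 1.92 CPM under submergence. It fell in both, with a difference of -1.83 ± 0.22 (SE; edgeR quasi-likelihood adjusted p = 0.022). BnaC08g41800D, of 336 bases, had 402, 397 and 360 CPM in Avatar air and 49.1 and 36.7 CPM under submergence, and in Zhongshuang 9 368 and 331 CPM in air and 12.3, 8.85 and 10.2 CPM under submergence. It also fell in both, with a difference of -1.89 ± 0.24 (SE; edgeR quasi-likelihood adjusted p = 0.0321). All 4 lost their call when the replicate number was added as a block, and over 22 alternatives the adjusted p ran from 2.11e-14 to 0.125, from 5.29e-16 to 0.15, from 9.69e-08 to 0.145 and from 1.22e-07 to 0.145, in the order given.

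**Figure D5:**
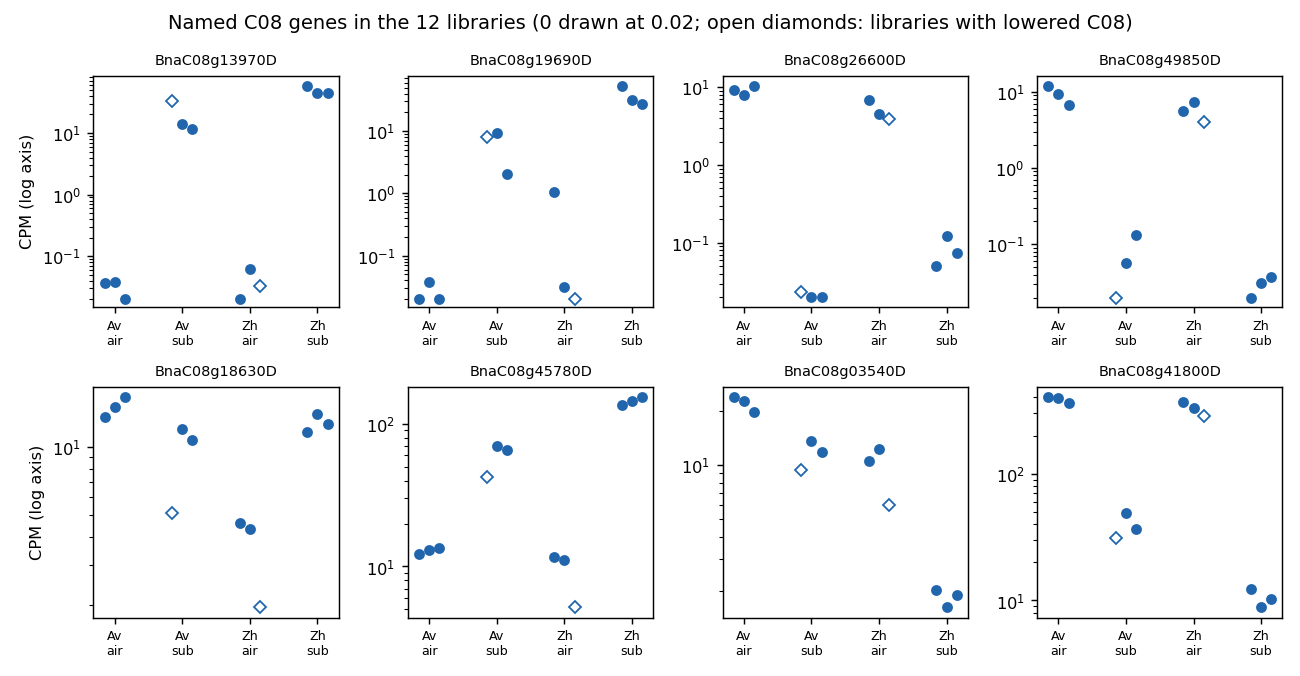
CPM in all 12 libraries (log axis, values of 0 drawn at 0.02) for the 4 genes named for submergence (upper row) and the 4 named for the difference in response (lower row); Av is Avatar, Zh is Zhongshuang 9, sub is submergence, and open diamonds are the libraries with lowered C08. Submerged and air libraries do not overlap in the upper row.

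Between the cultivars, 116 C08 genes were higher and 157 lower in Zhongshuang 9 in air, 9.77% of those tested, where 11.6% of all genes were called (4.61% higher and 7.04% lower). Under submergence 227 were higher and 305 lower, 19.0%, where 20.4% of all genes were called (8.43% higher and 12% lower). Fewer C08 genes were called in fits that left 1 library in a group, and 457 were called in air without Zhongshuang 9 submergence replicate 1. Shares over all genes in these fits are not set beside them, so the changes are not read as particular to C08.

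BnaC08g04910D, of 1434 bases, was nearly absent from Avatar, with 0.0385, 0 and 0 CPM in air and 0.0243, 0 and 0 CPM under submergence. In Zhongshuang 9 it had 67.2, 66.7 and 27.4 CPM in air, the last in the lowered library, and 53.2, 38.5 and 41.4 CPM under submergence, at least 539-fold higher than in submerged Avatar against the floor of 3 counts per library. BnaC08g05060D, of 279 bases, had at most 0.0381 CPM in Avatar. In Zhongshuang 9 it had 6.45, 5.81 and 5.15 CPM in air and 31.9, 4.27 and 3.36 CPM under submergence, where replicate 1 stands apart. Its adjusted p in air was 0.00797 by edgeR's quasi-likelihood test and 0.234 by limma-voom, with alternatives from 3.52e-07 to 0.234.

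In the other direction, BnaC08g25680D, of 726 bases, had 1890, 1600 and 1845 CPM in Avatar air and 19.1, 17.5 and 8.94 CPM in Zhongshuang 9 air. Its log2 difference was -6.60 ± 0.24 in air and -7.66 ± 0.21 under submergence (SE; edgeR quasi-likelihood adjusted p = 1.4e-05 and 4.28e-06). BnaC08g49490D, of 507 bases, had 34.8, 29.0 and 28.6 CPM in Avatar air and 0.361, 0.481 and 0.402 CPM in Zhongshuang 9 air. Its log2 difference was -6.12 ± 0.39 in air (edgeR quasi-likelihood adjusted p = 7.48e-05). Reads that fit several copies are divided between them, although the counts of BnaC08g05060D were whole in every library. The sequences of the cultivars were not examined, so a difference of sequence and a difference of expression cannot be told apart for these genes.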

How the data were processed

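The deposited values are kallisto's estimated counts and TPM for each target; kallisto, edgeR and limma are named, with no version, per the submitters' processing notes. The genome build is not given in the sources used. All C08 target lengths are multiples of 3 and so are coding lengths; of the deposited C08 estimated counts, 34.0% were not whole numbers within 0.01, since kallisto divides reads between near-identical targets, and values of such copies are uncertain. Members and lists were chosen with earlier results of these data known. Estimated counts were rounded, filtered by filterByExpr and fitted with edgeR 4.0.16 in R 4.3.3 with TMM factors and 1 mean per group. Standard errors were the absolute log2 fold change over the root of F. Log2 CPM used a prior count of 2. Named genes follow a rule: per comparison, the 2 largest changes (for the response difference, the smallest p) in each direction at 5 CPM or more; for cultivars it was applied after values were seen. A count of 0 was taken to allow 3 counts; floors and intervals cover counting error only. Alternatives used DESeq2 1.42.0, limma 3.58.1, other scalings and filters, and libraries left out. The fits were tested on simulated data.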

Additional observations from a re-analysis of the deposited data

Results flagged for a closer look

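The response to submergence differed between the cultivars by the interaction test in each of the 4 C08 genes named for it. These 4 were named for the smallest p of that same test in each direction, so their calls are no separate support. The difference in log2 response, Zhongshuang 9 minus Avatar, was 1.91 for BnaC08g18630D, 1.29 for BnaC08g45780D, -1.83 for BnaC08g03540D and -1.89 for BnaC08g41800D. Over 22 alternatives the call was lost in 7, 9, 11 and 9 of them, in that order.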

How the results depend on the processing

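Counts of C08 genes called kept within 1.5 times except as follows. Restricting to at least 5 CPM left 1197 C08 genes tested, against 2794, so its counts are not read as a lower share called. It gave 642 in Avatar, 679 in Zhongshuang 9 and 19 for the response difference. Between cultivars it gave 129 in air and 282 under submergence. Leaving out 1 library gave 601 to 1232 in Avatar, 661 to 1204 in Zhongshuang 9, 98 to 457 between cultivars in air and 230 to 717 under submergence. The response difference, 10 genes, ranged from 0 to 25; it was 0 without Avatar air replicate 3, Avatar submergence replicate 4, Zhongshuang 9 air replicate 1 or 3, or Zhongshuang 9 submergence replicate 4. It was 29 with the C08 shift as an offset in 12 libraries, which also shifts the block that was not lowered, 25 with only libraries free of any lowered segment, 104 with DESeq2, and 45 and 21 when limma was fitted to log2 TPM after adding 1 and 0.1. With the replicate block, edgeR called 0 genes (302 at an unadjusted p under 0.05, against 371 without it). Between cultivars the block gave 178 in air and 350 under submergence, and DESeq2 gave 411 in air. No clear pairing by replicate number was seen: over 18 same-number pairs, deviations correlated between -0.154 and 0.115, 1 of them above 0.1. With 3 libraries per group, and stretches shifted in single libraries, this cannot show that the samples were unpaired. The C08 level in Avatar submergence replicate 1 was 67.8% in TPM, 65.9% with library totals and 67.8% against the median of the other 11 libraries, and 59.2% to 61.6% against 1 group mate. In Zhongshuang 9 air replicate 4 it was 52.4% centred on genes off C08, 56.9% against the other 11 libraries, and 53.4% to 55.4% against 1 group mate. Genes that kept their level in both, 4 by the original rule, numbered 5 in the 10-gene stretches, 12 at a limit of -0.4, 1 at 20 CPM or more, 7 in TPM, 1 among genes with whole counts, 2 with at least 5 CPM in the group mates, and 7 to 11 against 1 group mate each. Risers made up 43.4% of Avatar calls and 63.1% of Zhongshuang 9 calls with 12 libraries. BnaC08g43480D, which kept its level, lost its Zhongshuang 9 call in 16 of 22 alternatives. The causes of these shifts were not tested. Shares over all genes are not set beside the counts of C08 calls in this section. Changes in those counts are therefore not read as particular to C08.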
